A study of Mus musculus with 9 samples.

Results

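The mitochondrial ribosomal protein genes were the 77 genes of the deposited table whose symbol is Mrpl or Mrps followed by a number and at most 1 letter, out of 54146 genes in all. Of these, 48 carry the Mrpl prefix and 29 the Mrps prefix, and their expression was compared in colonic mucosa by RNA sequencing (RNA-seq). One group was ApcMin/+ (n = 5, of which 2 were female), the other ApcMin/+; p16cis/cis (n = 4, of which 3 were female), and every mouse was a C57BL/6J animal 15 wk old. All 9 mice therefore carry the heterozygous germline Apc mutation that starts intestinal adenomas. The second group is in addition homozygous for the p16cis knock-in, a DNA element that spreads methylation onto the p16 (Cdkn2a) promoter. Mice with wild-type Apc were not analysed here, so the comparison is between Apc-mutant mice with and without the p16cis knock-in. It asks how gene expression in Apc-mutant colon differs between these genotypes.

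Mitochondria keep a small genome that encodes a few subunits of the respiratory chain, and these are made on ribosomes inside the organelle. The mitochondrial ribosome (mitoribosome) has a large and a small subunit. Its rRNAs come from mitochondrial DNA, while all of its proteins are encoded in the nucleus, made in the cytoplasm and imported. Many of the proteins descend from bacterial ribosomal proteins, and others were added in the mitochondrial lineage. The colonic epithelium renews continuously and relies on mitochondrial oxidation of fatty acids, butyrate in particular.

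The libraries held between 13523500 and 17885918 reads on genes, and every ApcMin/+; p16cis/cis library was smaller than every ApcMin/+ library (p = 0.00794 by a two-sided exact permutation test, which cannot go lower with 5 against 4 mice). Genes of mitochondrial DNA took 8.74% to 15.6% of the reads in ApcMin/+ mice and 19.3% to 29.8% in ApcMin/+; p16cis/cis mice, without overlap. Cdkn2a, the gene behind the p16 label, had 0 reads in all 9 libraries, so it gives no check of the genotype. The summed normalized count of 8 colon epithelium markers, all present in every mouse, was 311650 to 517499 in ApcMin/+ mice and 302143 to 321312 in ApcMin/+; p16cis/cis mice. The highest of these sums was that of ApcMin/+ replicate 4, which stood apart from the other 8 mice (302143 to 332078) and had the lowest summed immune markers of all (170 against 346 to 1822). Levels below are normalized counts, the reads of a gene divided by a size factor of the mouse. A fold change is the difference of mean log2(normalized count + 1), given ± its SE, and is positive where ApcMin/+; p16cis/cis mice were higher. In these bulk samples fewer cells of a type and less RNA per cell cannot be told apart.

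Of the 77 genes, 76 passed the filter on low values (10 or more normalized counts in 4 or more of the mice). Mrpl53 did not, with values of 1.12, 1.90, 0.976, 0 and 3.41 in ApcMin/+ mice and 1.26, 0, 0 and 1.57 in ApcMin/+; p16cis/cis mice. With limma and Benjamini-Hochberg adjustment over all 14410 genes tested, 18 of the 76 were higher in ApcMin/+; p16cis/cis mice at an adjusted p under 0.05, which is 23.7% of them, beside 8.14% of all genes tested that were called higher. None of the 76 was called lower, beside 8.75% of all genes. An unadjusted p under 0.05 in either direction was found for 35 of the 76, and for 33.2% of all genes. The quasi-likelihood test of edgeR also called 0 lower (9.05% of all genes with TMM scaling). DESeq2 called 1, Mrps31, beside 5.76% of 29946 genes. The median fold change of the 76 was 0.21 on the log2 scale, against -0.0041 for all genes tested, and 57 of the 76 had a positive value. The changes were small. None of the 76 passed the additional requirement of a fold change over 2 that the study used, which 1.83% of all genes passed as higher and 1.64% as lower. In 11 of the 76 the lowest ApcMin/+; p16cis/cis mouse lay above the highest ApcMin/+ mouse (7.24% of all genes tested), and in 1, Mrpl1, the groups were separated the other way (8.95% of all genes).

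**Figure D1:**
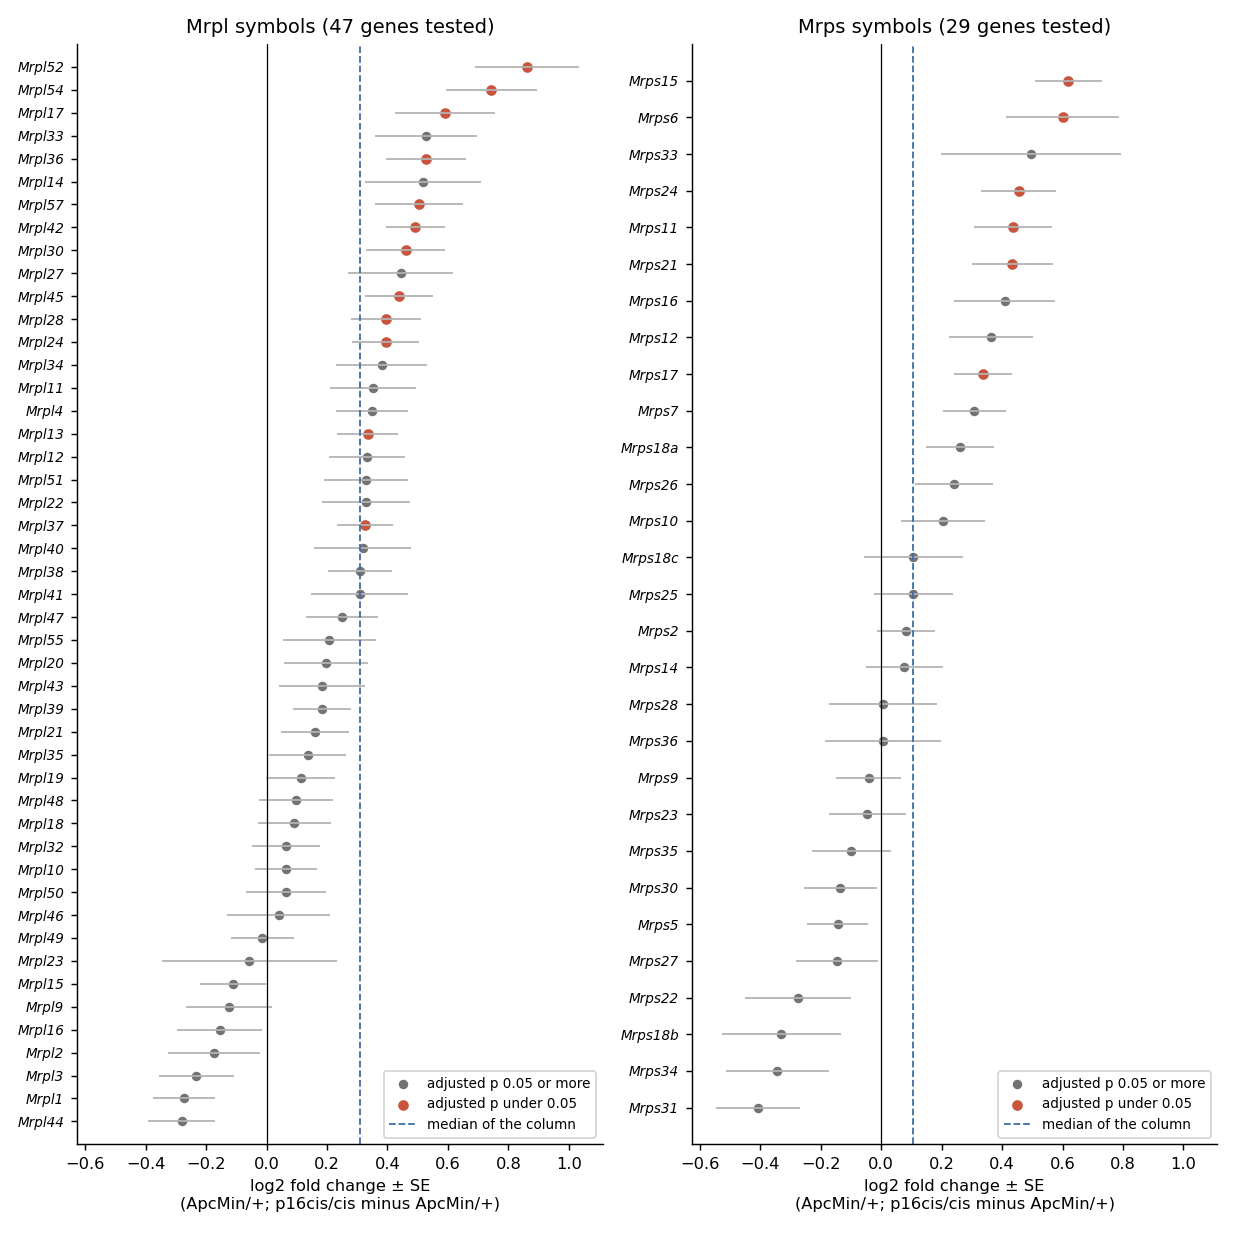
Log2 fold change (x axis, ApcMin/+; p16cis/cis minus ApcMin/+) ± SE of the 47 Mrpl genes on the left and the 29 Mrps genes on the right, ordered by value, with genes at an adjusted p under 0.05 in red and the median of each column dashed. All 18 red points lie right of 0, and the values run from -0.41 for Mrps31 to 0.86 for Mrpl52.

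The number of called genes depended on single mice. It was 4 to 7 when ApcMin/+ replicate 1, 2, 3 or 5 or ApcMin/+; p16cis/cis replicate 2, 3 or 4 was left out (6, 5, 4, 7, 4, 7 and 5), 22 without ApcMin/+; p16cis/cis replicate 1 and 27 without ApcMin/+ replicate 4. The calls over all genes moved too, with 3.71% to 7.02% of all genes higher in the first 7 of these fits, 7.49% and 11.7% in the last 2. The median fold change stayed between 0.15 and 0.28 in these 9 fits. Mrps15, Mrpl42, Mrpl52 and Mrpl54 were called in each of the 9.

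The 4 genes with the smallest adjusted p are described first. Mrps15 (ENSMUSG00000028861.13, GRCm38 chr4:126046925-126055532, plus strand) encodes a small-subunit protein with a bacterial counterpart. Its normalized count was 1167, 1022, 1034, 1195 and 950.1 in the ApcMin/+ mice and 1474, 1504, 1800.2 and 1831 in the ApcMin/+; p16cis/cis mice, so the groups did not overlap. The fold change was 0.62 ± 0.11 (adjusted p = 0.00571), a ratio of the means of 1.54.

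Mrpl42 (ENSMUSG00000062981.5, chr10:95480805-95501940, minus strand), a large-subunit protein found only in mitochondria, had 1234, 1205, 1218, 1501 and 1225 normalized counts in ApcMin/+ mice and 1733, 1728, 1737 and 1975 in ApcMin/+; p16cis/cis mice. Except for ApcMin/+ replicate 4 and ApcMin/+; p16cis/cis replicate 4, each the high value of its group, the mice of a group lay close together, and the groups did not overlap. The fold change was 0.49 ± 0.10 (adjusted p = 0.00874).

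Mrpl52 (ENSMUSG00000010406.12, chr14:54426909-54429756, plus strand) showed the largest rise of the family. Its protein is another large-subunit component without a bacterial counterpart. The normalized counts were 1604, 1565, 1641, 2510.5 and 1543 in ApcMin/+ mice and 2759, 2836, 4347 and 2937 in ApcMin/+; p16cis/cis mice. Replicate 4 of the first group and replicate 3 of the second stood above the rest of their groups, and the groups were separated. The fold change was 0.86 ± 0.17 (adjusted p = 0.00875), a ratio of 1.82. Mrpl54 (ENSMUSG00000034932.4, chr10:81264713-81266934, minus strand), also specific to the mitochondrial large subunit, had 888, 899, 1005, 1308 and 863 against 1298, 1688, 2018 and 1648. Here ApcMin/+ replicate 4 overlapped the lowest ApcMin/+; p16cis/cis mouse, and the fold change was 0.74 ± 0.15 (adjusted p = 0.00909).

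**Figure D2:**
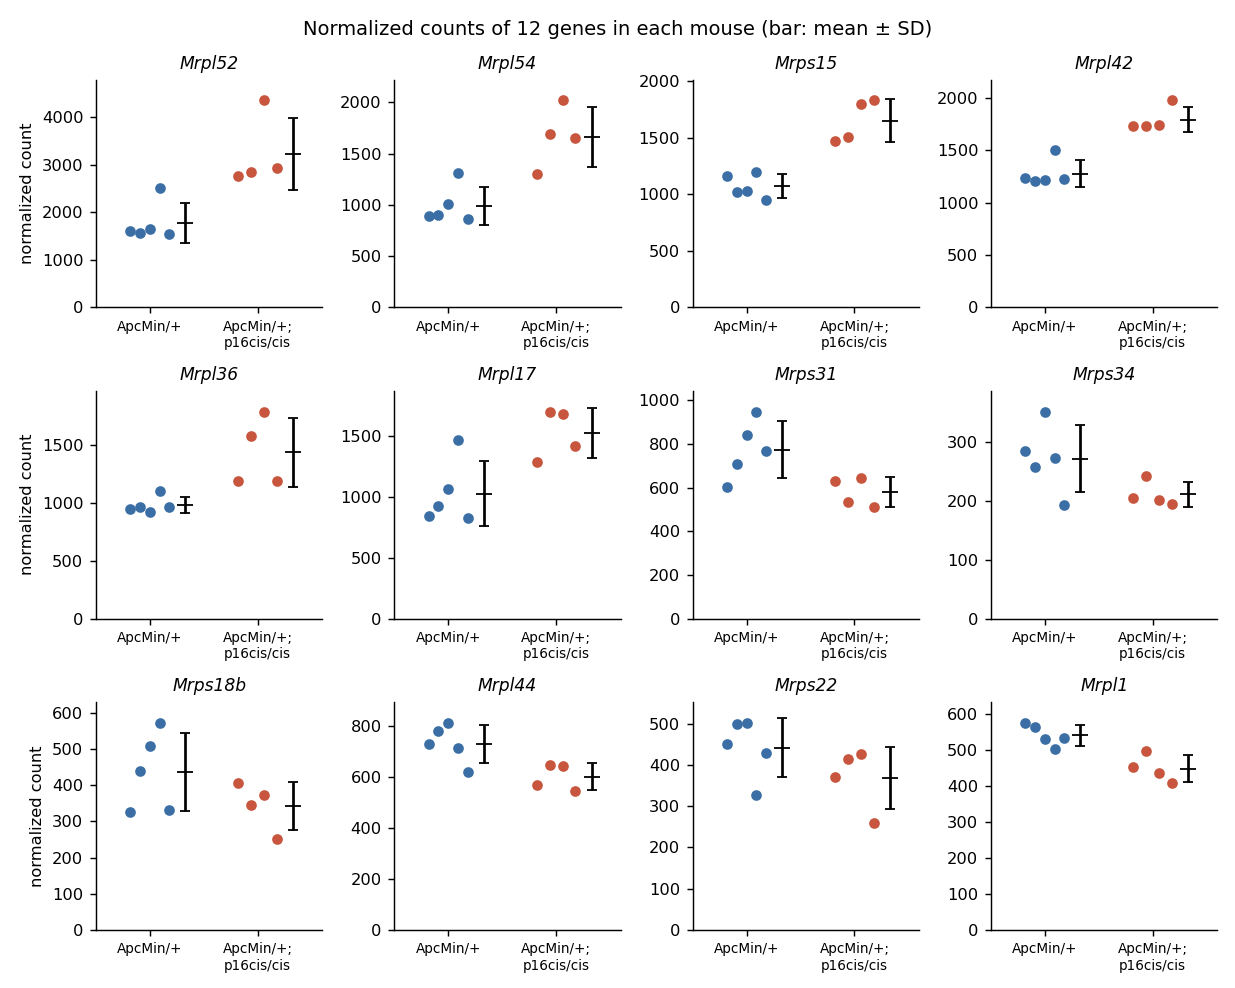
Normalized counts (y axis, from 0) of 12 genes in each of the 5 ApcMin/+ mice (blue) and 4 ApcMin/+; p16cis/cis mice (red), with mean ± SD in black beside each group. Mrpl52, Mrps15, Mrpl42 and Mrpl36 show no overlap between groups, and Mrpl1 is the only one of the 12 in which all red points lie below all blue points.

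The next 8 called genes by adjusted p were Mrpl36, Mrpl45, Mrps24, Mrpl17, Mrps17, Mrpl24, Mrpl37 and Mrpl30, with fold changes of 0.33 to 0.59 and adjusted p-values of 0.0209 to 0.0337. Mrpl36, a short protein with a bacterial counterpart, had 946, 964, 921, 1099.5 and 966 in ApcMin/+ mice and 1186, 1574, 1785 and 1184 in ApcMin/+; p16cis/cis mice. The second group split into a pair of high and a pair of low mice, both above every ApcMin/+ mouse (0.53 ± 0.13, adjusted p = 0.0209). Mrpl45 lies at the exit of the tunnel through which the nascent chain leaves and helps to tether the ribosome to the inner membrane. It had 808, 776, 813, 989 and 707 against 998, 1115, 1085 and 1222. The highest ApcMin/+ mouse was just under the lowest ApcMin/+; p16cis/cis mouse (0.44 ± 0.11, adjusted p = 0.0229).

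Mrps24, the mitochondrial form of a conserved small-subunit protein at the mRNA entry, had 1046, 981, 1109, 1215 and 821 against 1199.6, 1514, 1485 and 1451. One mouse of each group fell into the range of the other (0.45 ± 0.12, adjusted p = 0.0286). Mrpl17 had 842, 927, 1065, 1469 and 826 against 1283, 1699, 1681 and 1418, and ApcMin/+ replicate 4 alone reached the range of the second group (0.59 ± 0.17, adjusted p = 0.0315). Mrps17 differed from most of these genes in the narrow spread of its ApcMin/+ values, which were 1070.1, 1016, 1089.7, 1101 and 1017 against 1179, 1511, 1325 and 1352, with no overlap (0.34 ± 0.10, adjusted p = 0.0315).

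Mrpl24, a conserved protein near the tunnel exit, had 1269.9, 1127, 1156, 1365 and 1131 against 1345, 1803, 1499.7 and 1737, with an overlap of 1 mouse per group (0.39 ± 0.11, adjusted p = 0.0325). The groups were separated for Mrpl37 with 1249.8, 1345, 1185, 1399.5 and 1170.3 against 1525, 1517, 1626 and 1689 (0.33 ± 0.09, adjusted p = 0.0326). For Mrpl30, with 928, 956, 1086, 1408 and 1107 against 1269, 1616, 1593 and 1518, ApcMin/+ replicate 4 again lay inside the range of the second group (0.46 ± 0.13, adjusted p = 0.0337). The remaining 6 called genes, Mrpl57, Mrpl28, Mrps11, Mrpl13, Mrps21 and Mrps6, had adjusted p-values of 0.0353 to 0.0454. Mrps6 had the largest fold change of these 6, with 711, 657, 813, 1070.3 and 631 against 893, 1297, 1002 and 1535 (0.60 ± 0.19, adjusted p = 0.0454), and 1 ApcMin/+ mouse above the 2 lower mice of the second group.

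At the other end of the family no gene passed the test. The 5 lowest fold changes were those of Mrps31, Mrps34, Mrps18b, Mrpl44 and Mrps22. Mrps31 encodes a mitochondria-specific small-subunit protein and had 605, 707, 839, 948 and 768 in ApcMin/+ mice and 630.1, 533, 643 and 509 in ApcMin/+; p16cis/cis mice. Only ApcMin/+ replicate 1 lay within the range of the second group, and the fold change was -0.41 ± 0.14 (adjusted p = 0.0633). Mrps34, a protein whose human counterpart is mutated in a mitochondrial encephalopathy, had 285, 257, 351, 272 and 193 against 205, 242, 201 and 194, with ApcMin/+ replicate 5 below all mice of the other group (-0.34 ± 0.17, adjusted p = 0.180).

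Mrps18b, which with Mrps18a and Mrps18c forms a trio of relatives of a single bacterial protein, had 326, 439, 509, 573 and 333 against 405, 345, 373 and 251, and the groups overlapped widely (-0.33 ± 0.20, adjusted p = 0.269). Mrpl44 carries a fold related to RNase III, and its values were 726, 779, 812, 712 and 619 against 568, 644, 643 and 542 (-0.28 ± 0.11, adjusted p = 0.101). ApcMin/+ replicate 5 was the single mouse of its group inside the other range. Mrps22, another gene of human mitochondrial disease, had 449.7, 500.1, 502, 327 and 429 against 370.0, 413, 425 and 260.0 (-0.27 ± 0.17, adjusted p = 0.301), with 1 low mouse in each group. Mrpl1, named here because its groups were separated downward, had 575, 562, 529.7, 501 and 532 against 452, 496, 434 and 407 (-0.27 ± 0.10, adjusted p = 0.0894).

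The members were then grouped by their place in the ribosome. Structures of the mammalian mitoribosome put Mrps30 and Mrps18a in the large subunit despite their symbols, and Mrps36 belongs to the alpha-ketoglutarate dehydrogenase complex. On this basis 12 of 49 large-subunit genes tested and 6 of 26 small-subunit genes were called higher, with median fold changes of 0.26 and 0.11. The counts by subunit and class stand beside 8.14% of all genes called higher and 8.75% lower, which is under 1 gene per direction in a class of 10. Among small-subunit genes, 6 of the 16 with a bacterial counterpart were called higher and 14 of the 16 had a positive fold change, with a median of 0.32. Of the 10 small-subunit genes with Mrps symbols counted here as specific to mitochondria, limma called 0 in either direction. In this class 1 gene had an unadjusted p under 0.05, and DESeq2 called Mrps31 lower. A positive fold change was found for 3 of the 10, and the median was -0.12. After the correction for GC content and length given further on, these medians were 0.14 and -0.18. In the large subunit 6 of 29 genes with a bacterial counterpart and 6 of 20 counted as specific to mitochondria were called higher. Their medians were 0.21 and 0.28, and 0.047 and 0.18 after the same correction. Mrps18b of the small subunit and Mrps18a of the large were counted as specific to mitochondria, although they are relatives of a bacterial protein. Class values with these genes placed otherwise were not computed. The classes hold only Mrpl and Mrps symbols, without the 5 mitoribosomal proteins of other symbols given further on. Among those 5, Aurkaip1 and Chchd1 of the small subunit were called higher, 0 were called lower, and 1 had a negative fold change. The classes were assigned after the values had been seen, and differences between them were not tested.

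The summed normalized count of the Mrpl genes was 40092, 40882, 42742, 47584 and 35982 in ApcMin/+ mice and 44558, 52224, 55866 and 49828 in ApcMin/+; p16cis/cis mice, and ApcMin/+ replicate 4 overlapped the lowest of the second group. That of the Mrps genes was 19576, 19972, 20996, 23211 and 17625 against 20288, 23453, 23911 and 23100.1, with a wider overlap. The ratio of both sums lay between 2.04 and 2.05 in all 5 ApcMin/+ mice and between 2.16 and 2.34 in the 4 ApcMin/+; p16cis/cis mice. The spread of this ratio within ApcMin/+ mice was small (SD 0.00584, n = 5) beside that in the other group (SD 0.0770, n = 4). It is given as a description, without a test. The share of all reads that fell on the members was 0.339% ± 0.0288 (SD, n = 5) in ApcMin/+ and 0.349% ± 0.0129 (SD, n = 4) in ApcMin/+; p16cis/cis, with overlap. As a share of the reads outside mitochondrial DNA it was 0.385% ± 0.0221 against 0.461% ± 0.0313, without overlap.

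**Figure D3:**
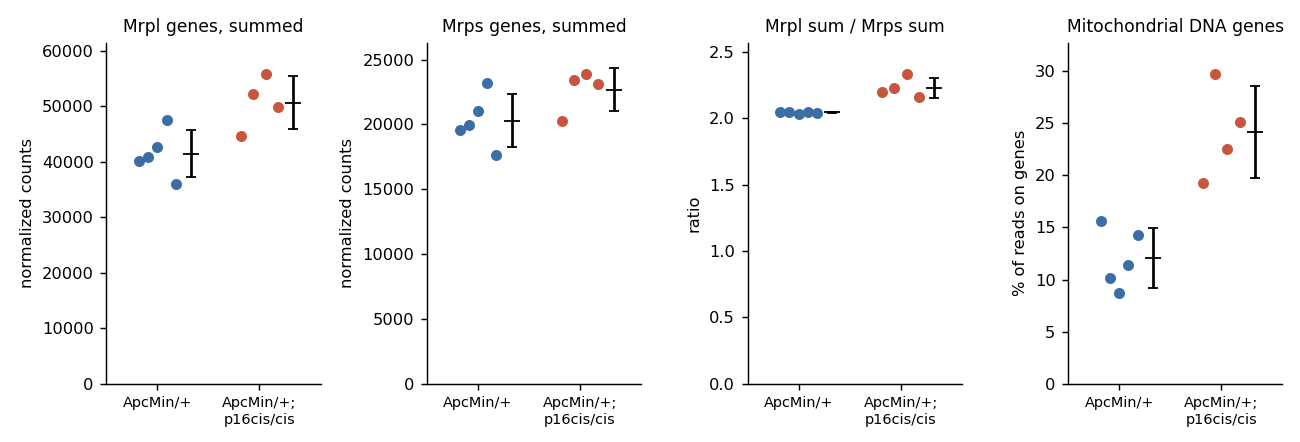
From left to right, summed normalized counts of the Mrpl genes and of the Mrps genes, the ratio of these sums, and the percentage of reads on mitochondrial DNA genes, in each ApcMin/+ mouse (blue, n = 5) and ApcMin/+; p16cis/cis mouse (red, n = 4), with mean ± SD in black. The sums overlap between the groups, whereas the ratio (2.04 to 2.05 against 2.16 to 2.34) and the mitochondrial share (8.74% to 15.6% against 19.3% to 29.8%) do not.

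The scale bears on the direction. Size factors scale each mouse to its bulk of genes, whereas scaling by the total of all reads also takes in the reads on mitochondrial DNA. On that second scale the median over all genes tested was -0.21 and that of the members 0.00057, so the members were again about 0.21 above the rest, but only 38 of 76 had a positive value. There, Mrpl52, Mrpl54 and Mrps15 were called higher (3.34% of all genes) and Mrpl1, Mrpl44, Mrps31 and Mrps34 lower (19.0% of all genes). With reads outside mitochondrial DNA as the base, 21 were higher (8.27% of all genes) and 0 lower (7.24% of all genes), including all 18 above. When the mitochondrial share was entered as a covariate, 0 of the 76 members and 0 of all genes were called (4 members had an unadjusted p under 0.05). Mitochondrial share and genotype cannot be told apart here, because the groups do not overlap in that share.

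Most members have short mRNAs. The median length of their principal transcript was 1288 bases, against 2828 bases for all genes tested, and short transcripts as a whole were higher in ApcMin/+; p16cis/cis mice. Of all genes with transcripts under 800 bases, 20.8% were called higher and the median fold change was 0.36, beside 4 of 15 members and a median of 0.38. Between 800 and 1200 bases it was 16.8% of all genes and a median of 0.24, beside 7 of 19 members and 0.26. From 1200 to 2000 bases it was 9.68% and 0.082, beside 3 of 18 members and 0.14. At 2000 bases or more, 5.86% of all genes were called higher and the median was -0.061, beside 4 of 24 members and 0.11.

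**Figure D4:**
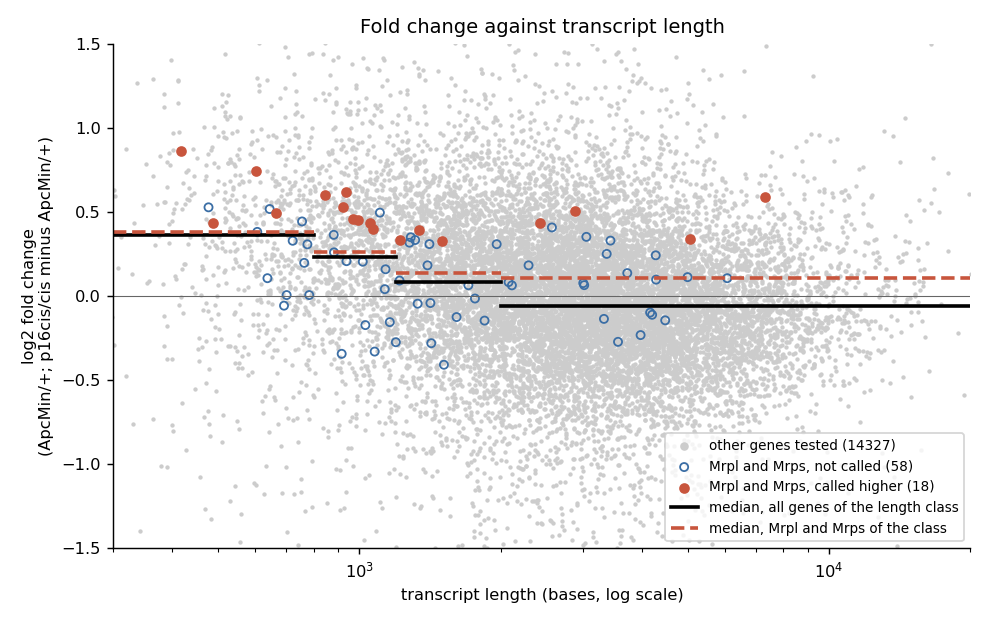
Log2 fold change (y axis, ApcMin/+; p16cis/cis minus ApcMin/+) against transcript length (x axis, bases, log scale) for all other genes tested (grey, those outside the axes not drawn), members not called (blue circles) and members called higher (red). Black lines are the medians of all genes in 4 length classes, which step down from 0.36 to -0.061, and dashed red lines are the medians of the members, which lie above them in all 4 classes.

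The fold changes were therefore also computed after each mouse had been corrected for the trend of its values with transcript length and GC content. All 77 members had a value for both properties. Lengths, here and in the levels per kilobase below, are of the annotated principal transcript, the longest where several ranked equally. The transcript forms present in these mice were not measured. After this correction the median of the members was 0.064 against 0.0068 for all genes, 6 members were called higher (5.76% of all genes) and 3 lower (5.70% of all genes). The 6 higher genes included 5 of the 18 above, namely Mrps15, Mrpl17, Mrpl45, Mrpl57 and Mrps17, and the 3 lower were Mrpl2, Mrpl44 and Mrps34. Mrps15 then had a fold change of 0.33 (adjusted p = 0.0317). Mrpl52, with the shortest transcript of the family at 418 bases, had 0.25 (adjusted p = 0.230), Mrpl54 0.21 (adjusted p = 0.159) and Mrpl42 0.22 (adjusted p = 0.107). In contrast, Mrpl17, with the longest transcript at 7300 bases, had 0.82 (adjusted p = 0.0406), and Mrps34 had -0.74 (adjusted p = 0.0162). Mrps21, called higher before, had -0.062 (adjusted p = 0.712). The part of transcript length or RNA quality in the differences was not tested beyond this correction.

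Sex was unequal between the groups. With sex as a covariate 8 members were called higher (4.69% of all genes) and 0 lower (5.28% of all genes), all 8 among the 18, and the median was 0.24. Within the 5 females (2 against 3) 15 were called higher (3.60% of all genes) and 0 lower (2.63% of all genes), 12 of the 15 among the 18, and the median was 0.41. The males gave no value of their own, since only 1 ApcMin/+; p16cis/cis mouse was male.

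Members with a known role beyond filling the ribosome gave the following values. Mrps12 and Mrps5 sit at or near the decoding site and have been studied for translational accuracy. Mrps12 had 769, 694, 764, 869 and 612 in ApcMin/+ mice and 774, 877, 1031 and 1156 in ApcMin/+; p16cis/cis mice (0.36 ± 0.14, adjusted p = 0.0903). Mrps5 had 762, 808, 752, 691 and 695 against 734, 638, 702 and 613 (-0.14 ± 0.10, adjusted p = 0.346). The groups overlapped for both genes. Mrpl10 and Mrpl12 form the flexible stalk that recruits translation factors, and Mrpl12 has also been described as a partner of the mitochondrial RNA polymerase. Mrpl12 had 2386, 2134, 2196, 2399.9 and 1879.7 against 2257, 3013, 3328 and 2564, so 3 of 4 ApcMin/+; p16cis/cis mice were above all ApcMin/+ mice (0.33 ± 0.13, adjusted p = 0.0878). Mrpl10 had 1153 to 1447 against 1263 to 1486 (0.06 ± 0.10, adjusted p = 0.699, and -0.14 when scaled by the total of all reads).

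Mrpl4 had 984, 1007, 1112, 1237 and 833 against 1248, 1233, 1441 and 1319, with an overlap of a few counts (0.35 ± 0.12, adjusted p = 0.0625). Mrpl41, reported to act on p53 and cell cycle arrest in addition to its place in the large subunit, had 481, 608, 579, 606 and 412 against 529, 711, 838 and 592 (0.31 ± 0.16, adjusted p = 0.208). The 2 other relatives of Mrps18b did not pass either, with 0.26 ± 0.11 (adjusted p = 0.129) for Mrps18a and 0.11 ± 0.16 (adjusted p = 0.691) for Mrps18c. Mrps30, first described as a pro-apoptotic protein, gave -0.14 ± 0.12 (adjusted p = 0.470). Mrps36, the member outside the ribosome, gave 0.01 ± 0.19 (adjusted p = 0.988), with 161 to 245 normalized counts in ApcMin/+ mice and 143 to 261 in ApcMin/+; p16cis/cis mice.

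Levels differed far more between members than between genotypes. Per kilobase of principal transcript, the mean normalized count over the 9 mice was 504 for the median member. Mrpl52 (5779 per kilobase), Mrpl42 (2262) and Mrpl54 (2137) were the 3 highest, and all 3 belong to the 4 genes with the smallest adjusted p. Their principal transcripts are short (418, 666 and 604 bases), and all 3 lost the call after GC and length correction. Of the 76 tested, the 3 lowest were Mrpl23 (39.7), Mrps33 (74.8) and Mrps25 (80.4). Mrps33 had 64.7, 62.8, 56.6, 122 and 46.5 normalized counts against 66.9, 92.5, 88.7 and 144 (0.50 ± 0.30, adjusted p = 0.269), and Mrps25 0.11 ± 0.13 (adjusted p = 0.612). Across the 76 genes the fold change had a Spearman rho of 0.36 with the mean level and -0.34 with transcript length. These are descriptions across genes that share the same 9 libraries.

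Mrpl23 is uncertain. The gene had 24.5, 30.4, 30.2, 22.9 and 29.5 normalized counts in ApcMin/+ mice and 26.5, 41.5, 19.5 and 21.9 in ApcMin/+; p16cis/cis mice (-0.06 ± 0.29, adjusted p = 0.915). The table also lists Mrpl23-ps1, a single-exon copy on chromosome 2 that the rule leaves out. It had 6.70, 3.80, 7.80, 30.5 and 9.08 in ApcMin/+ mice against 37.9, 54.2, 58.6 and 43.9 in ApcMin/+; p16cis/cis mice, without overlap (2.28 ± 0.48, adjusted p = 0.0102). This copy was singled out after its values were seen. Reads that fit both copies could have been split between them in the counting, and the split was not tested.

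The 77 genes lie on 17 chromosomes in the GENCODE annotation of GRCm38. Of the 76 tested, 18 (23.7%) have the start of another protein-coding gene within 1000 bp upstream on the opposite strand, an arrangement found for 1290 of 12841 protein-coding genes tested. Of the 18 called genes 4 are in such pairs, Mrpl30 with Mitd1, Mrpl37 with Cyb5rl, Mrpl54 with Apba3 and Mrpl57 with Ska3. All 18 partners were tested, and 4 were called, each of them higher, beside 8.14% of all genes called higher and 8.75% lower. Cyb5rl, 120 bp from Mrpl37, gave 0.69 (adjusted p = 0.0229). Sars2, 172 bp from Mrps12 and the seryl-tRNA synthetase of mitochondria, gave 0.59 (adjusted p = 0.0155). Ncapd2 beside Mrpl51 gave 0.52 (adjusted p = 0.0206) and Eme2 beside Mrps34 gave 0.53 (adjusted p = 0.0336). Apba3, only 26 bp from Mrpl54, gave -0.098 (adjusted p = 0.635). The partners were named after their values were seen. Exons of 32 of the 77 members overlap an exon of another annotated gene, 27 of them on the opposite strand. The sources used here do not say whether strand was used in the counting. Of the 18 called genes 12 have no such overlap, and the 6 others are Mrpl13, Mrpl24, Mrpl36, Mrps6, Mrps11 and Mrps24.

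Promoter windows from RefSeq (GRCm38.p6, 250 bases before to 50 after the gene start) matched 68 of the 77 symbols. Both strands were searched for 4 motifs. The letters were CCGGAAG for the ETS family, which includes GABPA, GCGCATGC for NRF1 and AANATGGCG for YY1, 3 kinds of factor described as activators of nuclear genes for mitochondrial proteins. The last was the TATA box, spelled TATAAA. The ETS letters were found in 25 of 68 members (36.8%), beside 9.93% of all promoters and 19.3% of those of genes tested. The NRF1 letters were in 8 (11.8%, beside 3.05% and 5.91%), the YY1 letters in 10 (14.7%, beside 2.76% and 5.85%) and the TATA box in 5 (7.35%, beside 15.7% and 9.02%). Among the 16 called genes with a window, ETS letters were in 4 and YY1 letters in 5, and among the 51 tested and not called, in 20 and 5. A match shows only that the letters are there.

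The sequences below run 5′ to 3′ from 150 bases before to 30 bases after the start on the gene's strand. They show the called gene with the smallest adjusted p, Mrps15 (chr4:126046778-126046957, plus strand), in which none of the 4 motifs was found, and the called genes or genes among the 5 lowest with an NRF1 or ETS match in these bases. The latter are Mrpl52 (chr14:54426759-54426938, plus), Mrpl17 (chr7:105811058-105811237, minus), Mrpl57 (chr14:57826089-57826268, plus), Mrps21 (chr3:95871485-95871664, minus) and, among the lowest fold changes, Mrps22 (chr9:98601650-98601829, minus). Capitals mark the matches, of the NRF1 letters in Mrpl17 and of the ETS letters or their reverse complement in the others. Mrpl52 holds the ETS letters at 2 places, before and after the start.
Mrps15: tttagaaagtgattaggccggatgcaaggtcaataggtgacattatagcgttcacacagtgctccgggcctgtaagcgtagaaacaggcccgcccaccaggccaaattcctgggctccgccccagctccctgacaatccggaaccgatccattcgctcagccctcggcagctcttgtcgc
Mrpl52: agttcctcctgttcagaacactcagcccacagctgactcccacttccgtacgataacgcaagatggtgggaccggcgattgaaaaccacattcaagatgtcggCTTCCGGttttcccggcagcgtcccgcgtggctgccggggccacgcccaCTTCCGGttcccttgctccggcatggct
Mrpl17: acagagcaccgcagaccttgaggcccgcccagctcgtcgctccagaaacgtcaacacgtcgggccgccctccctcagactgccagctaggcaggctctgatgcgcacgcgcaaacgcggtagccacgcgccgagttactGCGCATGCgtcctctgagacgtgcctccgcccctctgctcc
Mrpl57: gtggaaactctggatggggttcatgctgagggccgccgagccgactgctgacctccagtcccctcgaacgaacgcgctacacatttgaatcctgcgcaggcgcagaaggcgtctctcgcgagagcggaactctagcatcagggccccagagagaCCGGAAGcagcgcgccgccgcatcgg
Mrps21: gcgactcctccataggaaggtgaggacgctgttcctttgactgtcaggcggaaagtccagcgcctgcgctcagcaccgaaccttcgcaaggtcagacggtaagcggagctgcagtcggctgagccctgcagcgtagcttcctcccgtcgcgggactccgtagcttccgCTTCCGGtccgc
Mrps22: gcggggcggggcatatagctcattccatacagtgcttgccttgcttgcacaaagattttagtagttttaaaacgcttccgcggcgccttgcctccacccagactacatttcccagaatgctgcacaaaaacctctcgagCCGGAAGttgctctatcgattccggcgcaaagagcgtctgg

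The other genes of mitochondrial translation were examined by lists of known function, and their counts stand beside the same 8.14% of all genes called higher and 8.75% lower. With lists this short, most of these shares rest on 1 to 3 genes. Among 5 mitoribosomal proteins with other symbols, 2 were called, both higher, and the median was 0.48. Aurkaip1, a small-subunit protein, had 1531, 1441, 1527, 2024 and 1376 in ApcMin/+ mice and 2033, 2611, 2726 and 2810.4 in ApcMin/+; p16cis/cis mice, a narrow separation (0.69 ± 0.13, adjusted p = 0.00773). Chchd1, also of the small subunit, had 611, 642, 660.5, 589 and 606 against 682, 1118, 1044 and 714 (0.48 ± 0.15, adjusted p = 0.0468). The groups were separated in Chchd1 too, with 2 of the 4 ApcMin/+; p16cis/cis mice close to the other group. The call for Chchd1 was lost after GC and length correction (0.16, adjusted p = 0.521) and with sex as covariate (adjusted p = 0.112), and held in 2 of 9 fits with 1 mouse left out. Aurkaip1 kept its call in each of these. Gadd45gip1 gave 0.48 ± 0.16 (adjusted p = 0.0531), Dap3 0.18 ± 0.11 (adjusted p = 0.285) and Ptcd3 -0.18 ± 0.13 (adjusted p = 0.368).

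The rRNAs themselves come from mitochondrial DNA, and the protocol both depletes rRNA and selects polyadenylated RNA. The small rRNA mt-Rnr1 had 63791, 42253, 45478, 27552 and 51021 normalized counts in ApcMin/+ mice and 44769, 91159.5, 40082 and 76459.5 in ApcMin/+; p16cis/cis mice (0.42 ± 0.30, adjusted p = 0.351). The large rRNA mt-Rnr2 had 185381, 107013, 116848, 41472 and 118445 against 86242, 195000.0, 78994 and 126875 (0.15 ± 0.41, adjusted p = 0.833, and -0.06 when scaled by the total of all reads). Both overlapped between the groups, and ApcMin/+ replicate 4 was the lowest of the 9 mice. Their share of the reads was 0.886% ± 0.351 (SD, n = 5) and 0.875% ± 0.341 (SD, n = 4), which differ by less than their SD (p = 0.921 by a two-sided exact permutation test).

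Of 25 assembly factors tested, 3 were called, all higher, and the median was -0.016. They were Eral1, a chaperone of the small rRNA (458 ± 26.8 against 623 ± 33.2, 0.44 ± 0.10, adjusted p = 0.0126), Mpv17l2 (0.67 ± 0.18, adjusted p = 0.0282) and Mettl17 (0.50 ± 0.15, adjusted p = 0.0402). Of 15 translation factors, 3 were called, all lower, with a median of -0.061. Lrpprc, which stabilizes mitochondrial mRNAs, had 1272, 1606, 1364, 1227 and 1328 against 1096, 909, 951 and 752, without overlap (-0.56 ± 0.12, adjusted p = 0.0124). Taco1, a translational activator of a cytochrome oxidase subunit, had 285, 305, 296, 203 and 293 against 182, 201, 158 and 168 (-0.63 ± 0.15, adjusted p = 0.0189), and the elongation factor Gfm1 gave -0.46 ± 0.12 (adjusted p = 0.0221). Of these 6 genes Mpv17l2 (0.28, adjusted p = 0.157), Mettl17 (0.39, adjusted p = 0.101) and Gfm1 (-0.30, adjusted p = 0.108) were no longer called after GC and length correction.

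Of 20 enzymes that charge mitochondrial tRNAs, 3 were called higher (Sars2, Vars2 and Gatc) and 1 lower (Rars2, -0.48 ± 0.11, adjusted p = 0.0152), with a median of -0.049. After GC and length correction the calls for Sars2 (0.36, adjusted p = 0.0823) and Vars2 (0.31, adjusted p = 0.0574) were lost. Among 13 genes for replication and transcription of mitochondrial DNA, 1 was called, Tfam, which packages the DNA and starts its transcription. It had 849, 977, 889, 747 and 874 against 665, 605, 547 and 600.0, and all 4 ApcMin/+; p16cis/cis mice were lower than all ApcMin/+ mice (-0.52 ± 0.11, adjusted p = 0.00957). Of 9 regulators of mitochondrial biogenesis, 1 was called higher and 1 lower. Myc, a driver of growth and of ribosome production, had 1482, 1370.2, 1453, 1077 and 1401 against 1812, 1565, 1956 and 2162 (0.47 ± 0.12, adjusted p = 0.0259). Ppargc1a, a coactivator of mitochondrial gene expression, had 1110.3, 1025, 699, 969 and 837 against 715, 646, 642 and 465 (-0.59 ± 0.16, adjusted p = 0.0272). Both calls were lost after GC and length correction, which gave 0.21 (adjusted p = 0.348) for Myc and -0.31 (adjusted p = 0.232) for Ppargc1a, and with sex as covariate (adjusted p = 0.0671 and 0.0619). The expression of the ETS factor Gabpa gave -0.43 ± 0.14 (adjusted p = 0.0527), of Nrf1 -0.04 ± 0.12 (adjusted p = 0.841) and of Yy1 -0.24 ± 0.09 (adjusted p = 0.0802).

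**Figure D5:**
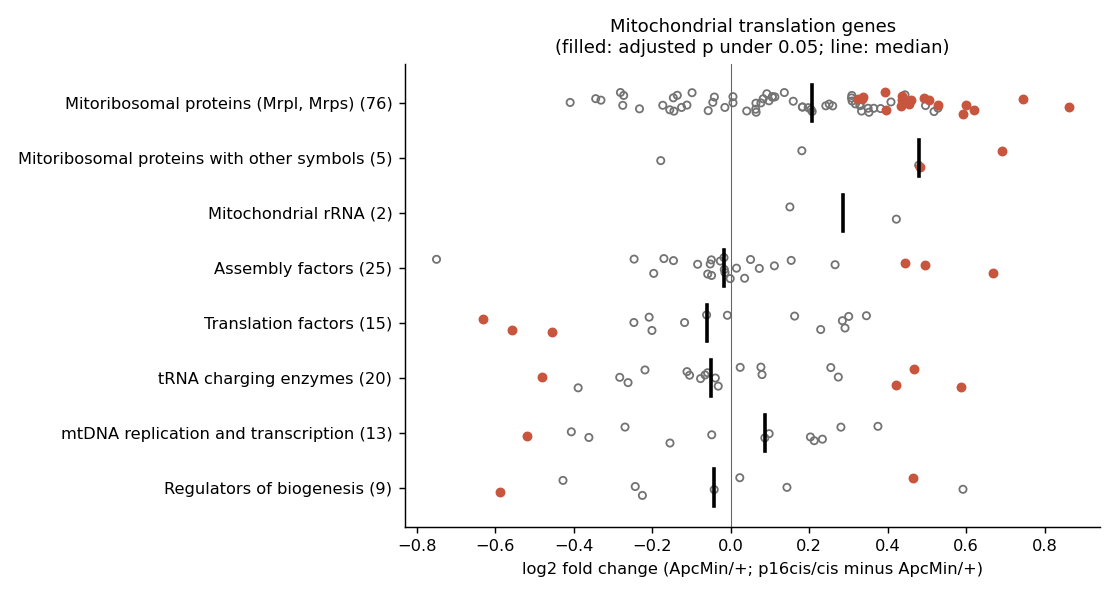
Log2 fold change (x axis, ApcMin/+; p16cis/cis minus ApcMin/+) of each gene tested in 8 groups of mitochondrial translation genes (y axis, number of genes in brackets), with genes at an adjusted p under 0.05 filled in red and the median as a black line. The medians, not corrected for transcript length, are 0.21 for Mrpl and Mrps genes and 0.48 for mitoribosomal proteins with other symbols. They are 0.29 for the mitochondrial rRNAs and 0.087 for replication and transcription of mitochondrial DNA. For assembly factors, translation factors, tRNA charging enzymes and regulators of biogenesis they are -0.016, -0.061, -0.049 and -0.042.

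The 79 genes for proteins of the cytoplasmic ribosome, which are short and highly expressed, were counted for comparison. Of the 74 tested, 28 were called (37.8%), all of them higher, with a median fold change of 0.41, and 7 of them exceeded a fold change of 2. Of all genes tested, 8.14% were called higher, 8.75% lower, and 1.83% higher with a fold change over 2. Among all genes with transcripts under 800 bases, 20.8% were called higher, with a median of 0.36. A value corrected for length is not given for the cytoplasmic set. A difference between both kinds of ribosomal protein genes was not tested.

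Few markers of other cell types were called, but most had a negative fold change. The median was -0.70 for the immune list (7 negative, 2 positive) and -1.45 for the stromal, muscle and vessel list (7 negative, 1 positive). It was -0.34 for the colon epithelium list (6 negative, 2 positive). The shares called lower were 22.2%, 12.5% and 12.5%, beside 8.75% of all genes, and rest on 1 or 2 genes each. The summed levels of the lists overlapped between genotypes. In the immune list and the stromal, muscle and vessel list this overlap came from ApcMin/+ replicate 4 alone. In both lists every other ApcMin/+ mouse had a sum above those of all ApcMin/+; p16cis/cis mice. In the colon epithelium list the overlap came from ApcMin/+ replicate 5. Of 9 immune markers tested, 2 were called lower, Lyz2 of myeloid cells (-1.56 ± 0.30, adjusted p = 0.00745) and Jchain of plasma cells (-2.65 ± 0.64, adjusted p = 0.0175), and no other was called. The summed count of the immune list was 170 to 1822 in ApcMin/+ mice and 346 to 540 in ApcMin/+; p16cis/cis mice. Of 8 stromal, muscle and vessel markers 1 was called lower, Col3a1 (-2.92 ± 0.88, adjusted p = 0.0414), with list sums of 255 to 798 against 197 to 359, and this call was lost after GC and length correction (adjusted p = 0.0511). In the colon epithelium list, Slc26a3, the chloride exchanger of surface colonocytes, had 9191, 11865, 14071, 10028 and 6724 against 3488, 2981, 5088 and 6399 (-1.23 ± 0.24, adjusted p = 0.00848), and the other 7 were not called. No marker of the 3 lists was at 0 in all mice, and Cd4 and Pdgfra were below the filter. The part of cell composition in the values of the mitochondrial ribosomal protein genes was not tested.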

How the data were processed

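RNA was extracted with a column kit, named for colonic crypts in the methods and labelled colonic mucosa. Libraries (BGI protocol) were aligned with BOWTIE2, counted with RSEM and compared with DESeq2 by the authors. Genome build, annotation and tool versions are not given in the sources used here. What the authors deposited is a single table of signal values, namely counts divided by a size factor per mouse. Whole reads were recovered from the value of 1 read in each column (100% of values whole within 0.01 reads). Identifiers were matched to GENCODE M21 (GRCm38), in which all 77 members were found, 72 with the same version. The main test was limma 3.58.1 (R 4.3.3, trended variances, genotype only) on log2(normalized count + 1) with Benjamini-Hochberg adjustment. It was planned with such values in view. edgeR 4.0.16 and DESeq2 1.42.0 on recovered reads, other scalings, filters and covariates, a loess correction for GC content and length (span 0.5) and leaving out each mouse were alternatives. The procedure was tested on simulated data. The members and lists were chosen with earlier results of these data known. Genes named by rule are the 12 called members with the smallest adjusted p, the 5 largest rises and falls, members with a chosen role, the 3 highest and lowest per kilobase, members below the filter, both rRNAs and the top called genes of each list. Others are named outside this rule, among them Mrpl1, Gadd45gip1, Dap3, Ptcd3, Mettl17, Gfm1, Gabpa, Nrf1, Yy1 and the neighbouring genes. Mrpl58, Mrm2 and Mtrfr had no row under these symbols and were not analysed here. Single values were compared over the 126 splits of 9 mice. Each mouse is 1 replicate.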

Additional observations from a re-analysis of the deposited data

Results flagged for a closer look

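In 12 of 114 groups of 4 or 5 mice examined, 1 mouse stood apart from the rest of its group by Dixon's criterion, which flags about 1 group in 20 by chance. Of the 12, 8 concerned ApcMin/+ replicate 4. This mouse was the high value for Mrpl42 (1501 normalized counts, the other 4 at 1205 to 1234), Mrpl52 (2510.5, the others at 1543 to 1641), Mrpl36 (1099.5, the others at 921 to 966), Mrps18a (1108, the others at 834 to 908), Mrps33 (122, the others at 46.5 to 64.7) and Aurkaip1 (2024, the others at 1376 to 1531). It was the low value for Myc (1077, the others at 1370.2 to 1482) and Taco1 (203, the others at 285 to 305). For each of these genes except Myc, the mouse lay on the side of the mean of the ApcMin/+; p16cis/cis group.

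Among ApcMin/+; p16cis/cis mice, replicate 4 was high for Mrpl42 (1975, the others at 1728 to 1737), replicate 3 was high for Mrpl52 (4347, the others at 2759 to 2937) and for Lyz2 (40.6, the others at 19.1 to 22.7), and replicate 1 was low for Sars2 (436, the others at 539 to 554). No cause of these values was tested. The genotype difference was also compared between sexes by an interaction term, which rests on 1 male ApcMin/+; p16cis/cis mouse. With limma 0 of 76 members and 0 of all 14410 genes passed, and the smallest adjusted p was 0.722 in both. An unadjusted p under 0.05 was found for 20 members and for 979 of all genes.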

How the results depend on the processing

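The count of 18 members called higher stayed within 1.5 times under 9 alternatives that kept all or only female mice, at 15 for females only, 18 for edgeR with TMM and for a pseudocount of 0.1, 19 for TMM with limma and for at least 10 in every mouse, 20 for edgeR with RLE, 21 for DESeq2 and for reads outside mitochondrial DNA, and 22 for the upper quartile. Over these 9 alternatives, 3.60% to 9.63% of all genes were called higher. The count was 9 with no filter on low values (3.01% of all genes) and 8 with sex as covariate (4.69%). It was 6 after GC and length correction (5.76%) and 3 when scaled by the total of all reads (3.34%). It was 0 with the mitochondrial share as covariate (0 of all genes), with a fold change over 2 (1.83% of all genes) and with Bonferroni adjustment (27 of all genes in either direction). Leaving out 1 mouse gave 4 to 27. The count of members called lower, 0, became 1 in DESeq2 (5.76% of all genes) and 4 when scaled by the total of all reads (19.0%). It became 3 after GC and length correction (5.70%), and 0 to 1 with 1 mouse left out. The median fold change was 0.21 and moved by more than the spread between mice to 0.00057 when scaled by the total of all reads, to 0.41 in females and to 0.064 after GC and length correction, and lay between 0.15 and 0.28 with 1 mouse left out.

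Replicate numbers name different mice. Same-numbered mice had correlations of their deviations of -0.18, 0.066, 0.046 and 0.14, so the numbers were not treated as pairs. With the replicate block, in which ApcMin/+ replicate 5 has no partner, 8 members were higher and 0 lower (median 0.15). Of all genes, 6.79% were higher and 7.6% lower in this fit. With GC and length correction as well, 4 members were higher (4.07% of all genes) and 3 lower (4.87% of all genes), with a median of 0.020. Block values of genes whose sign turned are -0.057 for Mrps36 and, with the correction, -0.29 for Mrps36, -0.031 for Mrpl10, -0.21 for Mrps18c, -0.068 for Mrpl41, -0.051 for Mrps18a and -0.012 for Mrps12.

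The sign of other values turned as follows, none at an adjusted p under 0.05. Scaled by the total of all reads it was -0.055 for mt-Rnr2, -0.20 for Mrps36, -0.14 for Mrpl10, -0.10 for Mrps18c and -0.10 for Mrps25. After GC and length correction it was -0.26 for Mrps36, -0.012 for Mrpl10, 0.051 for Mrps30, -0.19 for Mrps18c, -0.015 for Mrpl41, -0.087 for Mrps18a and 0.0051 for Mrps5. The mitochondrial share as covariate gave -1.31 for mt-Rnr2, -0.84 for mt-Rnr1, 0.032 for Mrps31, 0.35 for Mrps18b and 0.062 for Mrps5. Sex as covariate gave -0.11 and females only -0.25 for mt-Rnr2, and females only 0.022 for Mrps30. With 1 mouse left out, Mrps36 ranged from -0.14 to 0.15, mt-Rnr2 from -0.18 to 0.36 and Mrpl23 from -0.27 to 0.079. The cause was not tested. Mrpl53 and Mrpl23 had few reads in every mouse, which limits what their values can show, and the reason for these low values was not tested. Over 49 named genes and 25 settings, 967 fold changes kept their direction and side of the threshold, 204 called ones lost the call, 17 gained it and 36 turned.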
